A study of Mus musculus with 33 samples.

Results

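Retinal progenitor cells kept under rod induction were compared between day 5 and day 12 of culture. The comparison used the 3 libraries labelled rod induction at day 12 and the 3 labelled rod induction at day 5, which are 6 of the 33 libraries of the series. All cells came from embryonic day 14 retina of C57BL/6J mice, and at both days the labels give taurine and retinoic acid as the rod inducing agents. Other groups of the series were untreated cells, cells primed for rods or cones, and cells under rod or cone induction up to day 35, where COCO protein is the agent of the cone cultures. The growth protocol is not given in the sources used here, so cell density, medium and the days on which the agents were present are not described. Total RNA was extracted and made into libraries with Takara kits for very small inputs, and whole cultures were sequenced in bulk. In such data fewer cells of a type and less RNA per cell cannot be told apart. The labels number the replicates 1 to 3 but do not say whether they were separate cultures or animals. The p-values therefore measure only a spread between libraries, which may be technical. That spread was estimated over all 33 libraries of the series and not from the 6 compared ones alone.

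Progenitors of the embryonic retina divide and leave the cycle in an overlapping order as ganglion, horizontal, cone, amacrine, rod and bipolar neurons, and lastly as Muller glia. A photoreceptor precursor is set up by the transcription factors Otx2, Crx and Prdm1, and Nrl with its target Nr2e3 then directs the rod programme, which ends in the proteins of the phototransduction cascade. Retinoic acid and taurine are known to raise rod differentiation in retinal culture. The comparison asks how the transcriptome of the rod cultures moved over the second stretch of induction.

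Counts in genes were 8165696, 11967324 and 12242569 in day 5 replicates 1 to 3 and 15249412, 12985662 and 13654708 in day 12 replicates 1 to 3. Genes received 28.0% to 34.7% of all counted reads in these libraries. Mitochondrial genes took 13.0%, 17.0% and 11.4% of gene counts at day 5 and 21.0%, 12.4% and 14.8% at day 12. Levels below are CPM (gene counts scaled to a library of fixed size) on library sizes scaled by edgeR's TMM method. A count of 0 allows up to 3 counts, which is a floor of 0.208 to 0.337 CPM at day 5 and 0.205 to 0.216 CPM at day 12, covering counting error only. CPM is not divided by gene length, so levels are compared between libraries and not between genes.

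Replicate 2 of day 12 stood apart from the other libraries of its group, and it touches most results. On a line through all 18150 tested genes from the mean of day 5, set to 0%, to the mean of day 12 replicates 1 and 3, set to 100%, day 12 replicate 2 lay at 38.9%. The day 5 libraries lay at 9.05%, -7.73% and -1.32%, and day 12 replicates 1 and 3 lay at 110% and 90.2%, values that average to the 2 ends by construction. Cone libraries of day 12, measured on the same line, lay at 95.0%, 74.8% and 104%, and the rod libraries of day 21 at 111% to 116%. The biological coefficient of variation, edgeR's measure of spread between replicates, was 0.355 for the 3 rod libraries of day 12, 0.208 without replicate 2 and 0.160 for the day 5 libraries. Over all 33 libraries, which share the estimate used in the main test, it was 0.213, below that of rod day 12. Replicate 2 did not lie at one place on the path for all genes. Measured over the 2515 of all tested genes that were called higher without it, it lay at 58.8%, and over the 2008 called lower without it at 9.11%. The labels name no batch, so within-batch values could not be given, and what sets this library apart was not tested.

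**Figure D1:**
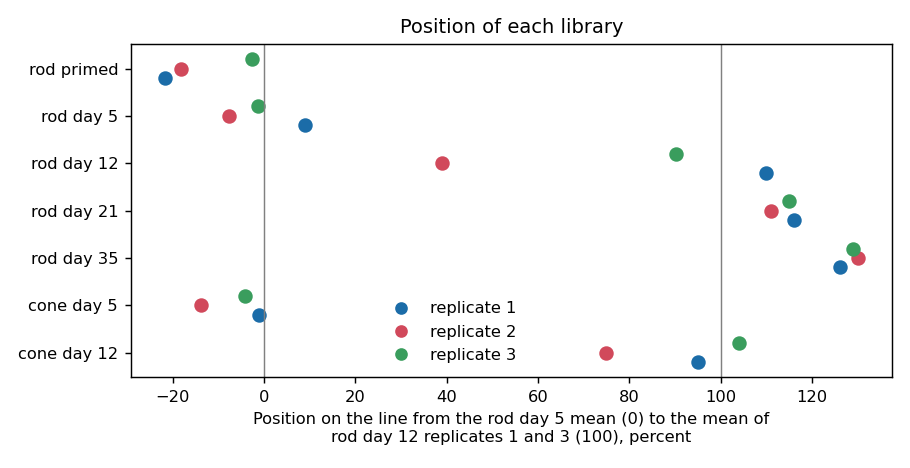
Position in percent (horizontal) of each library of rod primed, rod and cone cultures, 1 point per library, on the line from the mean of rod day 5 (0%) to the mean of rod day 12 replicates 1 and 3 (100%), over log2 CPM of all tested genes. Rod day 12 replicate 2 lies at 38.9%, below the cone libraries of day 12, which lie between 74.8% and 104%.

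Between day 5 and day 12, genes of contractile cells, extracellular matrix, reactive glia and antigen presentation rose, and genes of neurogenic progenitors and ganglion cells fell. Of 18150 genes tested, edgeR's quasi-likelihood test called 3318 at an adjusted p under 0.05, which is 18.3%. Of these, 2303 (12.7% of genes tested) were higher and 1015 (5.59%) were lower at day 12, and 1313 of the higher and 296 of the lower genes had moved by 2-fold or more. Without replicate 2 the test called 4540 of 18599 genes (24.4%), 2526 higher (13.6%) and 2014 lower (10.8%). The share of called genes that were higher went from 69.4% with all libraries to 55.6% without replicate 2. In all, 2991 genes were called in the same direction both ways, 2073 higher and 918 lower, and 0 were called in opposite directions. Counts of calls also rested on other libraries and on the fit, with 2059 genes called without day 12 replicate 1, 2101 without day 5 replicate 2, 965 when only the compared libraries were fitted (3766 in that fit without day 12 replicate 2) and 6955 by voom with sample quality weights. The median log2 fold change over all tested genes was 0.03 with all libraries and -0.02 without replicate 2. The libraries of the days did not overlap for 5386 genes (29.7%), with day 12 higher for 17.7% and lower for 12% of genes tested.

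Photoreceptor genes divided the day 12 libraries. Nrl, the factor that commits a precursor to the rod fate (chr14:55518978-55524981, on GRCm38 as in GENCODE M21, like the other gene positions), had 33.6, 76.2 and 56.5 CPM in day 5 replicates 1 to 3 and 0.428, 105 and 3.10 CPM in day 12 replicates 1 to 3. Replicate 2 lay above every day 5 library, and the other day 12 libraries lay below every day 5 library. The log2 fold change of Nrl by edgeR was -0.62 ± 0.97 (SE; adjusted p 0.712), and without replicate 2 it was -5.02 (adjusted p 0.000762).

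The same division ran through the list of 12 rod genes. With all libraries 0 of 12 were called by edgeR in either direction, where 18.3% of all genes were called. An unadjusted p under 0.05 was reached by 2 of the 12, DESeq2 called 0 and voom called 9 lower. In every voom result here, day 12 replicates 1 to 3 had weights of 0.403, 0.246 and 5.16. Its values for rod day 12 thus rest mostly on replicate 3. Without replicate 2 edgeR called 9 lower and 0 higher, where 10.8% and 13.6% of all genes were. The median log2 fold change was -0.03 with all libraries and -3.39 without replicate 2, beside 0.03 and -0.02 over all genes. Replicate 2 was above every day 5 library for 11 of the 12 genes, where 35.6% of all genes showed this, and replicates 1 and 3 were below every day 5 library for 10, where 23.1% of all genes did. Both patterns held for 9 of 12 genes and for 4.58% of all genes. Nr2e3, which represses cone genes in rods, had 24.4, 112 and 70.6 CPM at day 5 and 0.571, 153 and 5.62 CPM at day 12. Pde6b and Gnat1, a subunit of the rod phosphodiesterase and the rod transducin, had 240 and 228 CPM in replicate 2 but at most 7.50 and 17.2 CPM in the other day 12 libraries. The summed level of the list was 447 to 1100 CPM at day 5 and 31.8, 2093 and 96.0 CPM in day 12 replicates 1 to 3. In the rod libraries of day 21 it was 9.50 to 12.1 CPM. The label rod induction was therefore met by rod genes above the day 5 level in 1 of the 3 day 12 libraries.

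In genes shared by rods and cones and in cone genes replicate 2 was also the highest day 12 library, for 13 of 13 and 10 of 10 genes tested. It was above every day 5 library for 9 of the 13 shared genes and 1 of the 10 cone genes, where 35.6% of all genes showed this, and the lists were not tested against each other. Of 13 shared genes tested, 3 were called lower with all libraries, where 5.59% of all genes were. Without replicate 2, 12 were called lower, where 10.8% of all genes were. The medians were -0.63 and -3.30, beside 0.03 and -0.02 over all genes. Crx, the homeobox factor of photoreceptor precursors, had 360, 545 and 432 CPM at day 5 and 38.8, 431 and 78.0 CPM at day 12, so that replicate 2 lay within the day 5 range. The 3 genes that fell with all libraries were Isl2 and the precursor regulators Prdm1 and Otx2. Prdm1, which keeps precursors from the bipolar fate, went from 62.5, 120 and 78.9 CPM to 2.00, 31.3 and 2.02 CPM (log2 fold change by edgeR -2.88 ± 0.56, adjusted p 0.000597). Otx2 went from 150, 260 and 170 CPM to 22.1, 92.5 and 40.0 CPM (-1.91 ± 0.46, adjusted p by edgeR 0.00415). For both, all 3 day 12 libraries lay below all day 5 libraries and replicate 2 was the highest of the 3. Rcvrn, which encodes the calcium sensor recoverin, had 12.7, 23.0 and 21.2 CPM at day 5 and 3.00, 66.9 and 8.07 CPM at day 12 (log2 fold change 0.45 ± 0.78, adjusted p by edgeR 0.743). Without replicate 2 its direction turned, to -1.82 ± 0.77 (adjusted p by edgeR 0.0841).

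Of 12 cone genes, 10 were tested and 0 were called with all libraries, where 18.3% of all genes were. Without replicate 2, 7 were called lower, where 10.8% of all genes were. The medians were -1.12 with all libraries and -2.39 without replicate 2. With all libraries an unadjusted p under 0.05 was reached by 2, and DESeq2 called 1 and voom 7, all lower. Replicate 2 exceeded every day 5 library for 1 of these 10 genes, Cnga3, which was near the floor. Thrb, the thyroid hormone receptor of cones, had 33.5, 56.3 and 45.2 CPM at day 5 and 8.21, 42.8 and 10.5 CPM at day 12. Gnat2, the cone transducin, had 6.74, 6.43 and 7.22 CPM at day 5 and 0.785, 6.28 and 2.45 CPM at day 12. Opn1sw and Arr3, the short-wave opsin and cone arrestin, were at or below 1.43 CPM in all 6 libraries, and Opn1mw had 0 counts in all 6. Sox15, which the title of the series names, was at or below 0.786 CPM in all 6 libraries (log2 fold change -0.24 ± 0.74, adjusted p by edgeR 0.866).

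**Figure D2:**
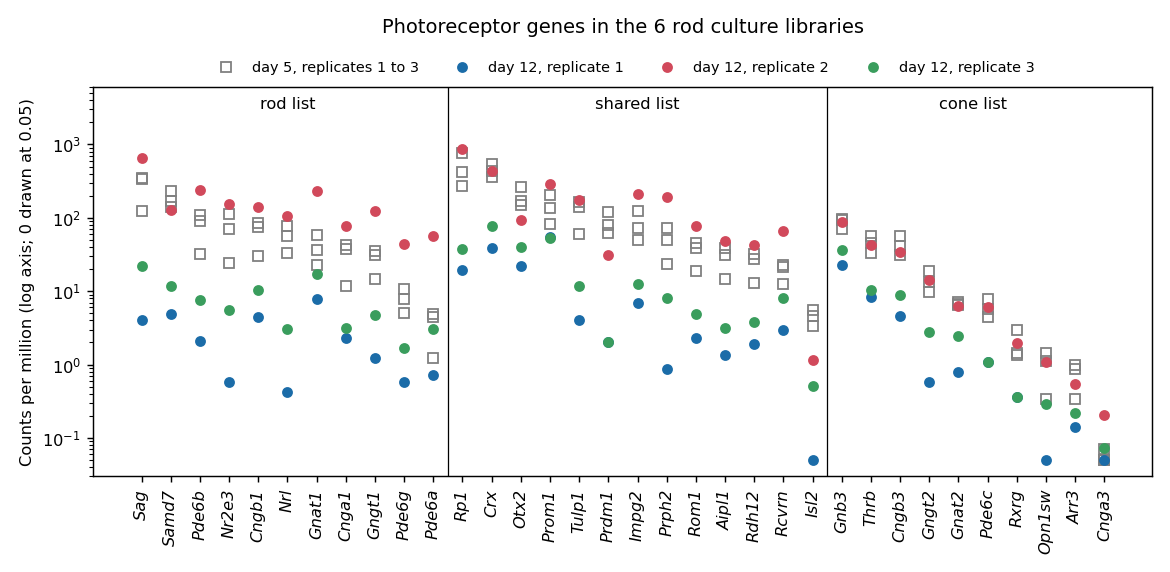
CPM on a log axis of tested genes of the rod, shared and cone lists in the 3 day 5 libraries (open squares) and the 3 day 12 libraries (filled circles, 1 colour per replicate), with 0 drawn at 0.05. Of the 11 rod genes plotted, day 12 replicate 2 lies above every day 5 library for all but Samd7, and day 12 replicates 1 and 3 lie below all of them for all but Pde6a.

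Promoters of 3 photoreceptor genes are shown as examples that hold the letters TAATCC, the core that Crx and Otx2 are known to bind. In these genes replicate 2 was the highest day 12 library, as in every tested gene of the rod, shared and cone lists. Each line gives the 150 bases before the gene's start from RefSeq on GRCm38.p6, 5′ to 3′ on the gene's strand, at chr1:87803530-87803679 on the plus strand for Sag, chr6:3993858-3994007 on the plus strand for Gngt1 and chr7:15879956-15880105 on the minus strand for Crx. Capitals mark TAATCC, read here on the other strand as GGATTA.
Sag: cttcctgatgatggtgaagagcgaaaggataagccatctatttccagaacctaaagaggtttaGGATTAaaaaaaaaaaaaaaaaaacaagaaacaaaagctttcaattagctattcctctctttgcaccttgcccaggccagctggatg
Gngt1: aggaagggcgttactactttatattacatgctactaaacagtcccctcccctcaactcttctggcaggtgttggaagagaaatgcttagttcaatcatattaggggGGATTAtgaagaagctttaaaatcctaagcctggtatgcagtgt
Crx: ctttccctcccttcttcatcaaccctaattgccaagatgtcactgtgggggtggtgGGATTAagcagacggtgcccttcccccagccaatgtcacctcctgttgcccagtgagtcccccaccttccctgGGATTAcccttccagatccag

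The match began 87 bases before the start in Sag (rod arrestin), 44 bases in Gngt1 (a rod transducin subunit), and 94 and 21 bases in Crx. Sag had 123, 337 and 350 CPM at day 5 and 4.07, 654 and 21.8 CPM at day 12. Gngt1 had 14.5, 35.3 and 30.9 CPM at day 5 and 1.21, 124 and 4.69 CPM at day 12. In windows of 300 bases, 250 before and 50 after the start, TAATCC on either strand occurred in 5 of the 8 rod genes that have a window (62.5%). It occurred in 2 of 8 cone genes (25%), in 3 of 12 shared genes (25%) and in 2199 of all 27025 genes with a window (8.14%). The rod genes Nrl, Nr2e3 and Pde6b had 0 matches, and the 2 cone genes with a match were Gnat2 and Thrb. This motif was chosen after the values were seen, and a match is a description of letters, not a binding site.

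Neurogenic progenitor genes fell in both accounts of the day 12 libraries. These genes mark the step at which a progenitor leaves the cycle. Of 15, 11 were called lower and 0 higher (median -1.31), where 5.59% of all genes were lower. Without replicate 2, 12 were lower (median -1.78), where 10.8% of all genes were. Dll4, a Notch ligand of newly committed cells, went from 8.87, 8.51 and 10.1 CPM to 0.143, 0.546 and 1.37 CPM, and replicate 2 lay between the other day 12 libraries. Its log2 fold change by edgeR was -3.73 ± 0.54 (adjusted p 2.16e-05). Insm1, a factor of the last divisions, went from 59.0, 66.9 and 54.9 CPM to 5.93, 31.4 and 9.37 CPM, so that all day 12 libraries lay below day 5 and replicate 2 was the nearest. Neurod1, Neurod4, Dll1, Dll3, Hes6, Sox4, Sox11 and Mybl1 were among the others that fell. Atoh7, which starts the ganglion cell programme, had 0 counts at day 12 and at most 0.337 CPM at day 5, so no fold is given, and with it set to no change the median was -1.23.

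Eye field and progenitor identity genes went both ways. Of 14 tested, 1 was called higher (Hes1) and 3 lower (Sfrp2, Hes5 and Rax), where 12.7% and 5.59% of all genes were, with a median of 0.11. Without replicate 2, 2 were called higher and 3 lower, where 13.6% and 10.8% of all genes were. Pax6, a master regulator of eye development, had 350, 377 and 418 CPM at day 5 and 400, 512 and 449 CPM at day 12, and the groups overlapped (log2 fold change 0.25 ± 0.14, adjusted p by edgeR 0.227). Six3, Lhx2 and Sox2 also overlapped between the days. Sfrp2, a secreted modulator of Wnt signalling (chr3:83766321-83774316), had the largest fall of all genes that met the naming rule. It went from 107, 124 and 118 CPM to 1.78, 4.16 and 5.05 CPM, so that replicate 2 lay with its group (log2 fold change by edgeR -4.98 ± 0.41, adjusted p 1.98e-08).

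Ganglion cell genes mostly fell, amacrine and horizontal cell genes mostly fell outside replicate 2, and bipolar genes rose in replicates 2 and 3. Of 14 ganglion cell genes, 6 were called lower and 1 higher, and without replicate 2 10 were lower and 1 higher (medians -1.57 and -2.65). Among all genes, 5.59% were called lower with all libraries and 10.8% without replicate 2. Pou4f1, a transcription factor of ganglion cells, went from 12.8, 12.4 and 11.2 CPM to 0.357, 2.59 and 0.288 CPM (log2 fold change by edgeR -3.46 ± 0.58, adjusted p 0.000116). Nefm, Nefl, Gap43, Stmn2 and Slc17a6 were the others that fell, and Rbpms rose. Of 15 amacrine and horizontal cell genes, Calb2, Calb1 and Onecut2 fell and 0 rose, with 6 called lower without replicate 2. The list's median log2 differences from the day 5 mean were -0.79, 0.23 and -1.34 in replicates 1 to 3. In replicate 2, 8 of the 15 genes lay above every day 5 library, where 35.6% of all genes did. Among these 8 were the amacrine genes Gad1 and Slc18a3, with 55.8 and 3.41 CPM.

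Of 11 bipolar genes, 5 were called higher with all libraries (median 1.97), and without replicate 2 3 were higher and 1 lower. Among all genes, 12.7% were called higher with all libraries and 13.6% without replicate 2. Trpm1, the cation channel of ON bipolar cells, went from 6.74, 3.15 and 7.22 CPM to 18.4, 45.8 and 86.7 CPM, and replicate 3 was the highest. Its log2 fold change by edgeR was 3.15 ± 0.63 (adjusted p 0.000704). Grm6, the glutamate receptor upstream of Trpm1, had 6.29, 1.64 and 6.25 CPM at day 5 and 9.78, 47.8 and 60.9 CPM at day 12. Lrtm1 rose from at most 0.555 CPM to 2.93, 7.03 and 23.1 CPM. For these genes replicate 1 was the lowest library of day 12, unlike for the contractile genes below. The list's median log2 differences from the day 5 mean were 0.06, 2.09 and 2.35 in replicates 1 to 3. The summed level of 142 CPM in replicate 1 lay within the day 5 range of 135 to 159 CPM. Of 16 synapse genes, 1 rose and Cplx2 fell with all libraries, and without replicate 2 1 rose and 7 fell. The shares of all genes called lower were 5.59% with all libraries and 10.8% without replicate 2.

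Cell cycle genes were not called as a group. Of 24 mitosis genes 0 were called in either direction with all libraries or without replicate 2, where 18.3% and 24.4% of all genes were. The medians of the list were -0.27 and -0.05. With all libraries 2 of the 24 had an unadjusted p under 0.05, DESeq2 called 0 and voom called 4, all lower. Mki67, a marker of dividing cells, had 889, 843 and 814 CPM at day 5 and 1029, 398 and 704 CPM at day 12 (log2 fold change -0.26 ± 0.29, adjusted p by edgeR 0.595). Replicate 2 was the lowest library and replicate 1 the highest. The summed mitosis level was 2365 to 2679 CPM at day 5 and 2905, 1138 and 2036 CPM at day 12. Of 24 DNA replication genes 1 was called lower, Gins1, and 0 higher by edgeR, while DESeq2 called 4 lower and voom 11 lower and 1 higher. Without replicate 2 0 of these were called by edgeR, and 3 had an unadjusted p under 0.05. Cdkn1a, an inhibitor of cyclin dependent kinases, rose from 8.87, 3.65 and 7.08 CPM to 40.6, 12.1 and 19.0 CPM (log2 fold change by edgeR 1.89 ± 0.38, adjusted p 0.000755). Cdkn2b was the other of 7 such inhibitors that rose, with libraries of the days overlapping. Without replicate 2, 2 of the 7 were called higher and 1 lower. Among all genes, 12.7% were called higher and 5.59% lower with all libraries, and 13.6% and 10.8% without replicate 2.

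Promoters of 2 mitosis genes are shown because in both replicate 2 was the lowest library. They give the 150 bases before the start from RefSeq on GRCm38.p6, at chr4:118437344-118437493 on the minus strand for Cdc20 and chr19:37376232-37376381 on the plus strand for Kif11. Capitals mark TTTGAA, the core of the cell cycle homology region, and CCAAT, each on either strand, where the matches do not overlap.
Cdc20: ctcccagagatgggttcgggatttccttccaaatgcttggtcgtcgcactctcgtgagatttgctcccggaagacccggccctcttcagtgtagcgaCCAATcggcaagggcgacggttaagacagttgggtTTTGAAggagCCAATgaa
Kif11: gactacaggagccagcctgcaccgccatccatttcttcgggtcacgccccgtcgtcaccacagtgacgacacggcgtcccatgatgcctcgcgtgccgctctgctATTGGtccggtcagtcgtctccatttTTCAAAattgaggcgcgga

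Cdc20, an activator of the anaphase complex, had 16.3, 11.7 and 15.9 CPM at day 5 and 20.1, 6.96 and 12.5 CPM at day 12. Kif11, a spindle motor, had 113, 97.5 and 94.7 CPM at day 5 and 101, 50.9 and 77.6 CPM at day 12. In the windows of 300 bases TTTGAA occurred in 15 of the 20 mitosis genes with a window (75%) and in 20.2% of all genes, and CCAAT in 18 of 20 (90%) and in 41.1% of all genes. These motifs were chosen as known elements of mitosis genes and with the values known, and a match is a description of letters only.

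Contractile and mesenchymal genes rose. Of 10 smooth muscle and contractile genes 9 were called higher and 0 lower, with and without replicate 2, where 12.7% and 13.6% of all genes were called higher (medians 3.43 and 3.73). Acta2, smooth muscle actin, went from 12.6, 1.36 and 3.82 CPM to 438, 127 and 209 CPM, with all day 12 libraries above day 5 and replicate 2 the lowest of them. Its log2 fold change by edgeR was 5.54 ± 0.54 (adjusted p 1.69e-07), and reads of this gene may be shared with Actg2, a close copy. Tagln, an actin binding protein, went from 19.1, 2.36 and 5.62 CPM to 356, 86.4 and 160 CPM. Cnn1, calponin, had 3 counts at day 5 in all and 263 at day 12, a ratio of 76.8 on scaled library sizes with an exact 95% counting interval of 26.0 to 375. The summed contractile level was 77.1 to 141 CPM at day 5 and 1636, 466 and 791 CPM at day 12. The CArG box, a motif of serum response factor, was found on either strand in 1 of the 7 contractile genes with a window (Myl9) and in 1.81% of all genes, a search also chosen after the values were seen.

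Of 13 mesenchyme genes 9 were called higher and 0 lower, and 10 were higher without replicate 2 (medians 2.42 and 2.72). The shares of all genes called higher were 12.7% and 13.6%. Fn1, fibronectin, went from 214, 260 and 481 CPM to 1144, 2719 and 1241 CPM (log2 fold change by edgeR 2.42 ± 0.32, adjusted p 7.09e-06). It was the only 1 of the 13 genes in which replicate 2 was the highest day 12 library, and the list's median log2 differences from the day 5 mean were 2.13, 1.41 and 3.37 in replicates 1 to 3. Col1a1, the main collagen of connective tissue, rose from at most 0.786 CPM to 20.4, 7.98 and 15.9 CPM. Twist1, a factor of mesenchymal transition, had 1.24, 0 and 0.347 CPM at day 5 and 8.71, 2.73 and 6.99 CPM at day 12. The collagens Col1a2 and Col3a1 were higher in all day 12 libraries but were not called (adjusted p by edgeR 0.118 and 0.157). The summed mesenchyme level was 300.3 to 536 CPM at day 5 and 1449, 2875 and 1578 CPM at day 12, most of it from Fn1. Whether other cell types contributed to these changes was not tested.

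Matrix genes rose widely. Of 16 matrix and basement membrane genes 12 were called higher and 0 lower, where 12.7% and 5.59% of all genes were, with a median of 1.61. Hspg2, the proteoglycan perlecan, went from 57.7, 40.4 and 40.5 CPM to 536, 126 and 258 CPM (log2 fold change by edgeR 2.73 ± 0.36, adjusted p 8.11e-06). Lamb1, a laminin chain, went from 42.9, 28.7 and 29.5 CPM to 295, 122 and 207 CPM. Bgn, biglycan, had 2 counts at day 5 and 172 at day 12, a ratio of 75.4 (exact 95% counting interval 20.6 to 627). In all of these genes replicate 2 was above day 5 and below the other day 12 libraries. Without replicate 2, Col6a1 was called lower, and it had 31.1 CPM in replicate 2 against 6.21 and 7.21 CPM in the others.

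Among 15 TGF-beta and BMP targets 5 were called higher and 0 lower (median 0.50), among them Ccn2, Ccn1, Smad6 and Smad7. Without replicate 2, 5 were called higher and 1 lower. Among all genes, 12.7% were called higher with all libraries and 13.6% without replicate 2. Ccn2, a matricellular protein, went from 19.7, 8.08 and 7.36 CPM to 274, 92.6 and 166 CPM (log2 fold change by edgeR 3.96 ± 0.38, adjusted p 1.48e-07). Smad7, an inhibitor of TGF-beta signalling, went from 17.4, 13.5 and 19.0 CPM to 31.1, 28.4 and 30.5 CPM, and replicate 2 lay with its group. The BMP targets Id1, Id2 and Id3 overlapped between the days and had log2 fold changes of 0.30, -0.06 and 0.36, none of them called.

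**Figure D3:**
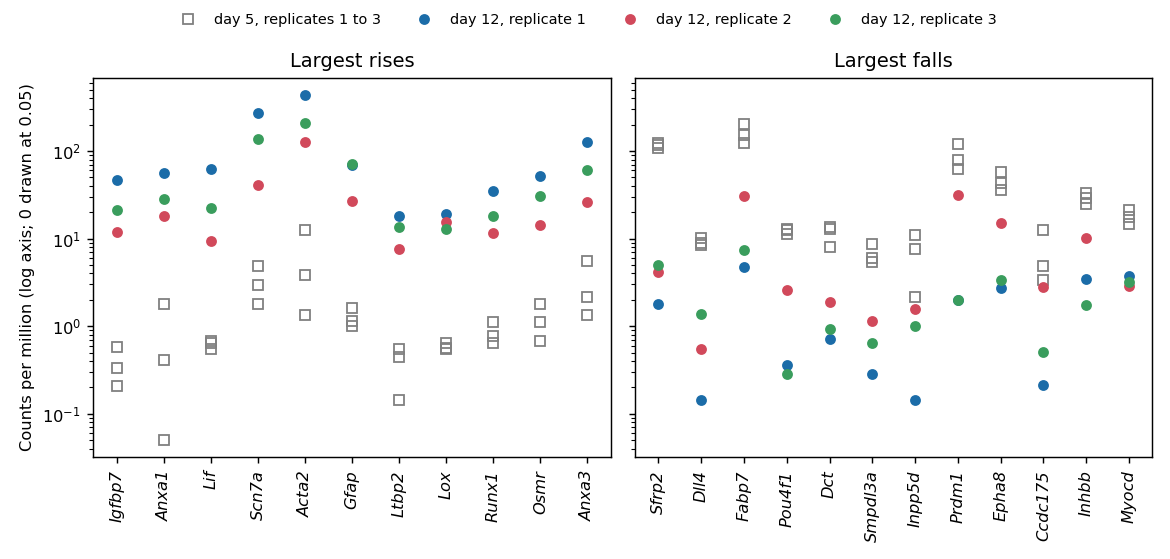
CPM on a log axis of 11 of the 12 largest rises (left) and the 12 largest falls (right) chosen by the naming rule, in the 3 day 5 libraries (open squares) and the 3 day 12 libraries (filled circles, 1 colour per replicate), with 0 drawn at 0.05. Among the falls, replicate 2 lies nearest to day 5 for Fabp7 and Prdm1, and for Sfrp2 and Myocd it lies with the other day 12 libraries.

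The rule for the largest changes named 12 rises, and all had 3 day 12 libraries above all day 5 libraries, which the rule requires. Beside Acta2, Gfap and Osmr they included Igfbp7, Anxa1, Lif, Scn7a, Ltbp2, Lox, Runx1 and Anxa3, with log2 fold changes of 4.65 to 6.11 by edgeR. Lif, a cytokine that signals through gp130, went from 0.674, 0.643 and 0.555 CPM to 62.8, 9.28 and 22.5 CPM. Igfbp7, a secreted binding protein for insulin-like growth factors, had at most 0.572 CPM at day 5 and 47.1, 11.9 and 21.0 CPM at day 12. Scn7a, an atypical sodium channel of glia, had at most 4.83 CPM at day 5 and 270, 40.7 and 137 CPM at day 12. Replicate 2 was the lowest day 12 library for Lif, Igfbp7 and Scn7a and replicate 1 the highest. Lox, a cross-linking enzyme of collagen, was more even, with 19.3, 15.3 and 12.8 CPM at day 12 and at most 0.643 CPM at day 5.

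The 12 falls were Sfrp2, Dll4, Fabp7, Pou4f1, Dct, Smpdl3a, Inpp5d, Prdm1, Epha8, Ccdc175, Inhbb and Myocd, with log2 fold changes of -4.98 to -2.45 by edgeR. Fabp7, a fatty acid binding protein of progenitors and radial glia, went from 151, 203 and 124 CPM to 4.71, 30.8 and 7.35 CPM. Inhbb, a subunit of activin and inhibin, went from 24.9, 33.4 and 29.0 CPM to 3.43, 10.1 and 1.73 CPM. For both, replicate 2 lay nearest to day 5. Myocd, the coactivator myocardin of smooth muscle genes, went from 14.6, 21.4 and 17.6 CPM to 3.78, 2.87 and 3.17 CPM while most contractile genes rose. Dct, a pigment enzyme, went from 7.98, 12.9 and 13.6 CPM to 0.714, 1.91 and 0.937 CPM. Ccdc175 had the weakest support of the 12 (adjusted p by edgeR 0.0410).

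Glial genes rose. Of 14 astrocyte and reactive glia genes 10 were called higher and 0 lower, and 11 were higher without replicate 2 (medians 2.27 and 2.29). The shares of all genes called higher were 12.7% and 13.6%. Gfap, an intermediate filament that Muller glia and astrocytes make on activation, went from 1.01, 1.14 and 1.60 CPM to 69.8, 27.2 and 71.5 CPM (log2 fold change by edgeR 5.45 ± 0.60, adjusted p 1.13e-06). Osmr, the oncostatin M receptor, went from 0.674, 1.79 and 1.11 CPM to 52.3, 14.5 and 30.5 CPM. Lcn2, a secreted protein of reactive glia, had 0 counts in all day 5 libraries and 7.71, 2.18 and 4.90 CPM at day 12, at least 19.5-fold higher with the day 5 libraries set to 3 counts each. All 3 genes had replicate 2 as the lowest of the day 12 libraries.

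Of 16 Muller glia genes 7 were called higher and 0 lower, and 8 were higher without replicate 2 (medians 0.78 and 0.58). The shares of all genes called higher were 12.7% and 13.6%. Clu, clusterin, went from 23.1, 16.8 and 13.9 CPM to 214, 156 and 123 CPM (log2 fold change by edgeR 3.21 ± 0.33, adjusted p 2.18e-07). Abca8a, a lipid transporter, went from 4.94, 3.07 and 7.78 CPM to 19.4, 55.5 and 47.4 CPM, and Cp, ceruloplasmin, from 646, 627 and 546 CPM to 2408, 947 and 1816 CPM. The genes Rlbp1, Glul and Slc1a3 of the mature Muller cell did not pass the test. Rlbp1, the retinaldehyde binding protein, had 127, 110 and 142 CPM at day 5 and 106, 174 and 120 CPM at day 12 (log2 fold change 0.08 ± 0.33, adjusted p by edgeR 0.903). Glul and Slc1a3, glutamine synthetase and the glutamate transporter GLAST, had log2 fold changes of -0.29 and 0.05.

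Genes of antigen presentation and complement rose from low levels, and microglial genes were also low. Of 14 interferon response and MHC class I genes 10 were called higher and 0 lower, with and without replicate 2. The shares of all genes called higher were 12.7% and 13.6%. The list's median was 2.74, or 2.20 with Isg15 set to no change. Isg15 had 0 counts at day 5 and was near the floor at day 12, so it is given no fold. B2m, the light chain of MHC class I, went from 16.8, 15.9 and 11.9 CPM to 46.6, 36.1 and 35.3 CPM (log2 fold change by edgeR 1.41 ± 0.20, adjusted p 1.92e-05). H2-K1 went from at most 1.94 CPM to 10.9, 9.82 and 8.51 CPM, although its reads may be shared with H2-D1 and other near copies. Ifitm3, Psmb8 and Bst2 had 3, 2 and 3 counts at day 5 and 142, 48 and 35 at day 12, ratios of 41.5, 21.0 and 10.2 with exact 95% counting intervals of 13.9 to 204, 5.51 to 179 and 3.22 to 52.0. Of 9 complement and acute phase genes 5 were called higher and 0 lower, and 4 were higher without replicate 2. Their summed level was 8.54 to 10.5 CPM at day 5 and 32.1, 20.9 and 29.7 CPM in day 12 replicates 1 to 3. Called members had as few as 2 counts at day 5 in all. Of 9 microglia genes tested 0 were called by edgeR, DESeq2 or voom, 1 had an unadjusted p under 0.05 by edgeR, and their summed level was 3.72 to 17.0 CPM at day 5 and 6.57, 20.3 and 11.0 CPM at day 12.

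Markers of other cell types were mostly not called. Among all genes, 12.7% were called higher and 5.59% lower by edgeR with all libraries. Of 4 endothelial genes tested 0 were called or had an unadjusted p under 0.05 by edgeR, DESeq2 called 0 and voom called 2 lower. Only 4 of the 8 list members had enough counts to be tested, so whether endothelial cells were present cannot be read from the sum. The summed level of the list was 274 to 308 CPM at day 5. At day 12 it was 243, 200 and 187 CPM in replicates 1 to 3. Cdh5, a member of the list, was at or below 0.360 CPM in all 6 libraries. In the oligodendrocyte list 1 of 7 genes rose and 1 fell. Olig2, a factor of glial and some neural progenitors, went from 3.93, 3.36 and 3.75 CPM to 0.286, 0 and 0.144 CPM (log2 fold change by edgeR -4.60 ± 0.62, adjusted p 1.21e-05). Pdgfra, a growth factor receptor, rose with all libraries (adjusted p by edgeR 0.00812) and not without replicate 2 (0.156), and it had 15.9, 161 and 45.6 CPM at day 12 against at most 15.7 CPM at day 5. In the pigment epithelium list Mitf rose, Dct and Lrat fell, and Rpe65 and Mlana had 0 counts in all 6 libraries. In the lens list Cryab, a small heat shock protein also made outside the lens, and Crybb3 rose, and Cryaa, which marks lens, had 0 counts in all 6 libraries. Of 11 motile cilium genes 0 were called by edgeR or DESeq2 and 1 had an unadjusted p under 0.05 by edgeR, while voom called 1 higher and 1 lower.

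Retinoic acid is an agent of these cultures, and the share of its pathway genes that were called was near that of all genes. Of 15 genes 3 were called higher and 1 lower (median 0.09), where 12.7% and 5.59% of all genes were, and without replicate 2 4 were higher and 1 lower. Cyp26a1, the enzyme that degrades retinoic acid and is induced by it, fell from 373, 411 and 321 CPM to 210, 95.2 and 210 CPM (log2 fold change by edgeR -1.10 ± 0.35, adjusted p 0.0275, or 0.0815 without replicate 2). All 3 day 12 libraries lay below day 5. Cyp26b1, a second such enzyme, had 184, 105 and 177 CPM at day 5 and 62.8, 430 and 293 CPM at day 12 and was not called (adjusted p by edgeR 0.341). Rarg, a retinoic acid receptor, rose from 5.73, 5.72 and 6.39 CPM to 22.7, 11.1 and 16.4 CPM. Dhrs3, which reduces retinal to retinol, and Aldh1a1, which makes retinoic acid, were the other genes that rose. Aldh1a1 had 14.2 CPM in replicate 2 and 145 and 117 CPM in the other day 12 libraries.

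In the Notch pathway 5 of 13 genes were called higher and 3 lower, and 4 and 3 without replicate 2. Among all genes, 12.7% were higher and 5.59% lower, and 13.6% and 10.8% without replicate 2. Jag1, a ligand, went from 5.95, 6.51 and 3.19 CPM to 29.4, 17.4 and 16.7 CPM (log2 fold change by edgeR 2.03 ± 0.35, adjusted p 0.000135), and Notch2, Notch3 and Maml2 also rose. The targets Nrarp and Hey1 and the glycosyltransferase Mfng fell. Dlk1, an imprinted ligand, was called higher with all libraries only through replicate 2, which had 56.1 CPM against 1.14 and 1.44 CPM in the other day 12 libraries, and without it the log2 fold change was -0.98 (adjusted p by edgeR 0.398). Of 9 Wnt targets Tcf7 rose and Lgr5 and Nkd1 fell, while Axin2 had a log2 fold change of 0.04. Tcf7, a transcription factor of the pathway, went from 4.16, 2.29 and 7.29 CPM to 59.2, 15.9 and 35.8 CPM. Of 12 p53 targets 7 were called higher and 0 lower, among them Fas, Phlda3 and Perp, while Mdm2 was not called (adjusted p by edgeR 0.0989).

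Genes of glucose breakdown and the hypoxia response rose, in part through replicate 2. Of 16 tested 10 were called higher and 1 lower, and 7 higher and 1 lower without replicate 2 (medians 0.97 and 0.47). The shares of all genes called higher were 12.7% and 13.6%. Hk2, a hexokinase, went from 3.48, 1.79 and 2.92 CPM to 21.3, 30.6 and 12.5 CPM, above day 5 in every day 12 library (log2 fold change by edgeR 3.00 ± 0.30, adjusted p 1.79e-07). Pfkl, a phosphofructokinase, went from 33.0, 32.3 and 41.0 CPM to 62.5, 148 and 84.6 CPM, and Aldoa, an aldolase, from 119, 107 and 127 CPM to 187, 392 and 196 CPM. Pdk1, Vegfa and Bnip3, targets of the hypoxia factor HIF1, were called with all libraries and not without replicate 2 (adjusted p by edgeR 0.442, 0.379 and 0.784). Vegfa, a growth factor for vessels, had 129, 113 and 148 CPM at day 5 and 144, 615 and 247 CPM at day 12. Ndrg1 fell, with 142, 242 and 226 CPM at day 5 and 35.8, 187 and 36.5 CPM at day 12. Counts of Gapdh and Eno1, also called higher, may be shared with near copies elsewhere in the genome.

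Cholesterol synthesis genes were mostly not called, with 3 of 14 higher, Msmo1 among them, and 0 lower, where 12.7% and 5.59% of all genes were. Among 12 chromatin and early embryonic regulators 1 rose and 3 fell, and 1 and 4 without replicate 2, where 13.6% and 10.8% of all genes did. Hmga2, a chromatin protein of early development, went from 3.93, 3.43 and 2.78 CPM to 38.8, 12.1 and 12.4 CPM, and Hmgb2, Igf2bp3 and Ezh2 fell.

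**Figure D4:**
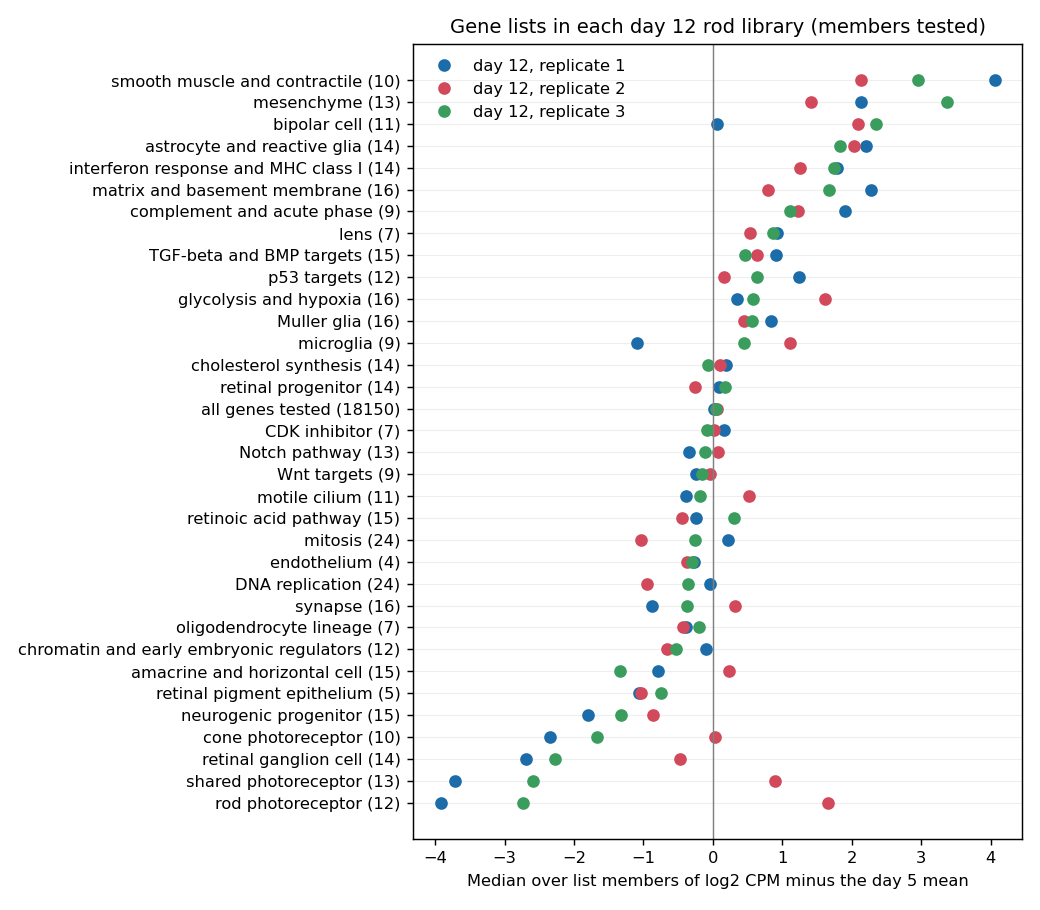
Median difference in log2 CPM between each day 12 library and the mean of the 3 day 5 libraries over the tested genes of each list, with all tested genes for comparison and 1 colour per replicate. For rod photoreceptor genes replicates 1, 2 and 3 lie at -3.92, 1.66 and -2.73, and for contractile genes all 3 lie above 0.

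Cone cultures over the same days gave the comparison for what was shared. Under cone induction edgeR called 7840 of 18150 genes (43.2%), 24.6% higher and 18.6% lower, from 3 against 3 libraries that the rod comparison does not use. Across genes, which are not independent replicates and share the dispersion estimate, the rod and cone log2 fold changes of 18150 genes had a correlation of 0.674 by Pearson and of 0.630 by Spearman, with a Pearson correlation of 0.746 once rod day 12 replicate 2 was left out. The contractile list was called higher in 10 of 10 genes in cone cultures and the matrix list in 13 of 16. In cone cultures 19 of 24 mitosis genes and 12 of 24 replication genes were called higher, with medians of 0.99 and 0.61.

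The difference between the rod change and the cone change was tested directly as an interaction, and 583 of 18150 genes were called by edgeR (3.21%). Of these, 203 (1.12%) changed more upwards in rod cultures and 380 (2.09%) more upwards in cone cultures. With DESeq2's size factors the share of the first kind was 44.3% in place of 34.8%. Without rod day 12 replicate 2 the count was 134 of 18599 (0.72%), and 3792 genes had an unadjusted p under 0.05 with all libraries. As single libraries were left out the count ran from 84, without cone day 12 replicate 3, to 2087, without rod day 12 replicate 1. Of 16 glycolysis and hypoxia genes 10 were called more upwards in rod cultures, and 3 without replicate 2, where 0.263% of all genes were, namely Hk2, Pdk1 and Pfkl. Hk2 had 2.73 ± 0.86 CPM (SD, n = 3) at rod day 5 and 21.5 ± 9.08 CPM at rod day 12, and means of 27.4 and 31.2 CPM in the cone libraries of these days. The difference in log2 fold change was 2.81 ± 0.39 (adjusted p by edgeR 0.000669). At day 5 the rod libraries held the lower level.

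Mitosis genes gave the opposite sign. Of 24, 8 were called lower in the rod change than in the cone change with all libraries and 0 without replicate 2, where 0.457% of all genes were, and of 24 replication genes 4 were called lower and 0 without replicate 2. Without replicate 2, 20 of the mitosis genes and 15 of the replication genes had an unadjusted p under 0.05, all lower in the rod change. Of the rod, cone and shared photoreceptor lists 0 genes were called in the interaction by edgeR or DESeq2, 1 shared gene was called by voom, and 3, 2 and 5 had an unadjusted p under 0.05 by edgeR. Nrl had means of 127 and 6.12 CPM at cone days 5 and 12. Of 10 cone genes tested 7 were called lower in cone cultures, and of 12 rod genes 4, where 18.6% of all genes were.

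Among the largest differences under the naming rule were Selenbp1, Plekha2, Hk2, Pdk1 and Trib3, higher in the rod change, and Grem1, Itgb4, Sema3d and Col4a4, lower in it. Grem1, a secreted antagonist of BMP, had 1.91, 2.36 and 3.54 CPM at rod day 5 and 6.14, 1.98 and 2.09 CPM at rod day 12, and went from a mean of 1.87 to 64.0 CPM in cone cultures. Its difference was -4.76 ± 0.83 on the log2 scale (adjusted p by edgeR 0.00299). Itgb4, an integrin subunit, had 17.0 ± 5.25 CPM at rod day 5 and 27.1 ± 12.1 CPM at rod day 12 (SD, n = 3) and went from 0.793 to 17.5 CPM in cone cultures. Col4a4, a basement membrane collagen, rose in both cultures, from 7.11 to 27.4 CPM in rods and from 0.700 to 27.3 CPM in cones. For Itgb4 and Col4a4 the cone cultures thus started lower at day 5. Selenbp1, a selenium binding protein, differed by 4.33 ± 0.86, with 5.24 and 0.440 CPM at cone days 5 and 12 and a rod change of 0.78 that was not called.

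**Figure D5:**
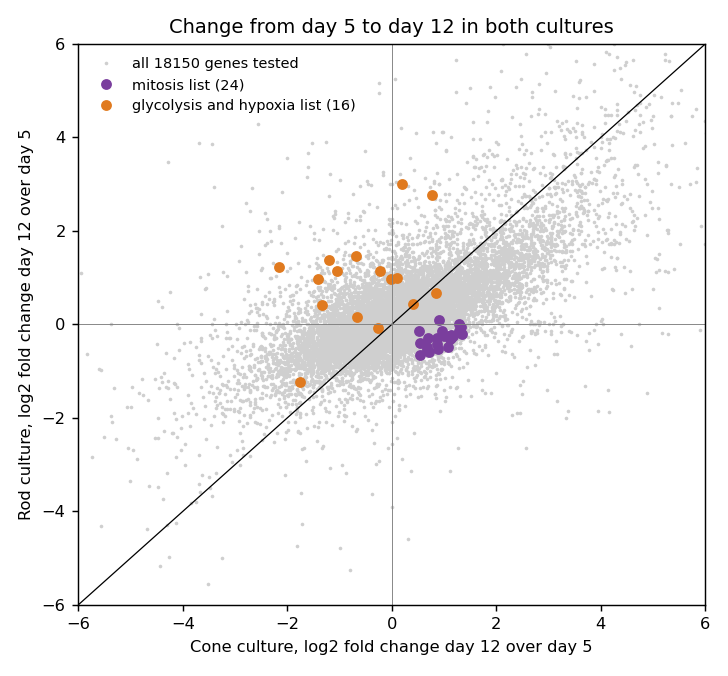
Log2 fold change from day 5 to day 12 in cone cultures (horizontal) and rod cultures (vertical), 1 point per tested gene, with the mitosis list (24 genes) and the glycolysis and hypoxia list (16 genes) coloured and the diagonal marking equal change. Mitosis genes lie right of 0 and below the diagonal, most glycolysis genes lie above it, and 68 genes lie outside the axes, which run from -6 to 6.

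The steps before and after share libraries with this comparison and are given side by side only. In the step from rod primed cells to rod day 5 edgeR made 3185 calls (17.5%), with 8.76% of genes up and 8.79% down. In the step from rod day 12 to rod day 21 it made 2027 calls (11.2%; 4.88% up) and, without rod day 12 replicate 2, 556 (2.99%; 1.26% up). The 12 rod genes were called lower at day 21 than at day 12 in 12 of 12 cases with all libraries, where 6.29% of all genes were, and in 1 of 12 without replicate 2, where 1.73% were. Their summed level was 183 to 685 CPM in rod primed cells. The mean of Acta2 at rod day 21 was 484 CPM, and those of Sfrp2 and Prdm1 were 0.724 and 0.776 CPM.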

How the data were processed

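The authors' deposited tables of raw read counts per gene were used for every result. The submitters' processing notes name HISAT2, StringTie, HTSeq and the build GRCm38 without roles, and the strand setting is not given in the sources used here, so overlapping and antisense genes are uncertain. Per the file headers, the other tables the authors deposited hold TPM, FPKM and coverage. TPM served only as an alternative, because 23.2% to 26.2% of genes with at least 100 counts in a library are listed at TPM 0. FPKM and coverage were not used. Summary lines for unassigned reads were dropped, which left 47729 genes, of which 47310 were found by identifier in GENCODE M21.

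Genes were filtered by group with filterByExpr at a minimum count of 10, TMM set the library scaling, and all 33 libraries entered 1 quasi-likelihood model with 11 groups (edgeR 4.0.16, limma 3.58.1, R 4.3.3). A call needs p under 0.05 after Benjamini-Hochberg adjustment over all genes tested, and errors on log2 fold changes are standard errors. Interaction genes had to pass the same test on the rod change minus the cone change. Levels and figures used Python 3.11.15, numpy 2.4.6, pandas 2.3.3 and matplotlib 3.10.9. Alternatives were DESeq2 1.42.0, its size factors, other filters, voom with sample quality weights, the compared libraries only, TPM, a replicate block and leaving out each library. On simulated data of 18150 genes, of which 17494 were tested, 53% of 2-fold and 88% of 4-fold changes were recovered with 5 false calls. The simulation changed 200 genes above 1 CPM and used the spread shared over all 33 libraries (coefficient 0.213). Rod day 12 had a coefficient of 0.355 with replicate 2 apart, so these rates do not carry over to the real comparison.

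The members and the 33 lists (442 genes, 416 of them tested) were chosen with earlier results of these data known. Named genes were the 12 largest rises and falls among called genes that averaged at least 1 in log2 CPM over the 6 libraries, with no overlap between days and the same call without replicate 2. In each list up to 3 called genes in each direction were named, or else the most abundant. The 5 largest differences from cone cultures on each side and 16 fixed genes were added, and other list members are given to account for a list. Symbols made of Gm and digits, ending in Rik or starting with mt- were passed over. A few of the genes chosen this way are left out.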

Additional observations from a re-analysis of the deposited data

Results flagged for a closer look

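The change from day 5 to day 12 differed between rod and cone cultures, by a test of the difference itself, for 583 genes. Among named genes the rod change exceeded the cone change, on the log2 scale, by 4.33 in Selenbp1, 2.92 in Plekha2, 2.81 in Hk2, 2.38 in Pdk1, 2.28 in Trib3, 2.15 in Pfkl, 1.64 in Nkd1 and 1.29 in Rax. Nkd1 and Rax fell in both cultures and fell less in rods. The difference was -4.91 in Olig2, -4.76 in Grem1, -3.79 in Itgb4, -3.63 in Sema3d, -3.33 in Col4a4, -1.81 in Calb1, -1.59 in Igf2bp3 and -1.36 in Cp. Olig2 had a mean of 7.69 CPM at cone day 5 and 9.64 CPM at cone day 12, while it fell in rod cultures.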

How the results depend on the processing

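Direction and call of the 118 results on named genes were kept in 118 under DESeq2's size factors, 116 under DESeq2, 103 without rod day 12 replicate 2, 102 under voom with quality weights and 75 when only the compared libraries were fitted, where the other 35 fitted lost their call. The naming rule required a call without replicate 2 for the largest rises, falls and differences from cone cultures. For those genes the count of 103 is therefore no test. Leaving out 1 library kept 94 (rod day 5 replicate 2) to 105. On TPM, 25 were kept with either pseudocount, while 62 with 0.1 and 61 with 1 lost their call. For the change from day 5 to day 12, fitting only the compared libraries gave 965 calls (781 higher, 184 lower), or 3766 (2268 and 1498) without rod day 12 replicate 2, and voom 6955 (3877 and 3078). TPM gave 184 (67 and 117) with a pseudocount of 1 and 102 (59 and 43) with 0.1. Leaving out 1 library gave 2059 to 4540 calls, 1497 to 2526 higher and 562 to 2014 lower. For the difference from cone cultures, fitting only the compared libraries gave 67 calls (25 and 42), voom 2379 (868 and 1511), DESeq2 1217 (536 and 681), and TPM 47 (38 and 9) or 31 (24 and 7). A filter at a mean of 1 CPM gave 322 higher. Leaving out 1 library gave 84 to 2087 calls, 32 to 944 higher and 52 to 1143 lower. Only leaving out rod day 5 replicate 2 kept this count within 1.5 times. The lowest was without cone day 12 replicate 3 and the highest without rod day 12 replicate 1. The change from rod day 12 to day 21 had 556 calls without replicate 2. Dlk1 ranged from -0.98 without replicate 2 to 3.69 without rod day 5 replicate 3, and it reversed also to -0.96 without replicate 2 when only the compared libraries were fitted, and -0.58 under voom, and Rcvrn, which was not called, to -1.81 without replicate 2 in the fit of the compared libraries. On TPM with pseudocounts of 0.1 and 1, the rod change reversed in Cdkn2b (-0.41 and -0.38), Egln3 (-0.70 and -0.14), Hey1 (0.021 and 0.0074), Igfbp7 (-0.042 and -0.0461), Isl2 (0.60 and 0.11), Lmod1 (-1.09 and -0.95), Lrat (0.81 and 0.12), Lrtm1 (-0.94 and -0.68), Ltbp2 (-0.042 and -0.011), Onecut2 (0.63 and 0.38), Pfkl (-1.71 and -1.32) and Rbpms (-0.74 and -0.62), and in Cnn1 with 1 (-0.082). The difference from cone cultures reversed in Col4a4 (1.12 and 0.64), Itgb4 (2.10 and 1.45) and Selenbp1 (-2.78 and -0.9963). The TPM tables list 19 named genes at 0 in all 6 libraries, and the cause of these reversals was not tested.

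Same-numbered libraries of the 2 days had deviations from their group means that correlated by 0.264, 0.138 and -0.0371, so the numbers were not taken as pairs. With the replicate block 3344 genes were called (2282 higher, 1062 lower), and 742 for the difference from cone cultures. Genes near the floor of 0.205 to 0.337 CPM are limited by depth.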
